A study of Mus musculus with 15 samples.

Results

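The retinoic acid pathway genes described here are 9 genes that make retinoic acid, carry its precursors or answer to it: Rdh10 and Dhrs9, Aldh1a1, Aldh1a2 and Aldh1a3, Rbp2, and the receptors Rara, Rarb and Rarg. They were found by gene symbol in 3 tables of read counts from mouse colon. Of these 9 genes, 8 were listed in all 3 tables, among 12897 genes listed in any table and 12370 listed in all of them. Aldh1a2 was listed in none and is not analysed here. The set was chosen by its expression values across the 5 groups below, as seen in earlier results of these data, so the values of its members are a description, and calls counted over all genes support nothing about them.

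Retinoic acid is made from vitamin A, or retinol, in 2 oxidation steps. Dehydrogenases such as Rdh10 first turn retinol into retinal, and the Aldh1a enzymes then turn retinal into retinoic acid, which binds nuclear receptors paired with retinoid X receptors on DNA and switches target genes on. In the gut it is known for shaping epithelial differentiation and for directing lymphocytes to the mucosa, where dendritic cells, stromal cells and epithelium are its sources.

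RNA-seq covered the distal colon of 15 mice on the C57BL/6 (B6) background, with 3 mice in each of 5 groups. Untreated wildtype B6 mice formed a pair of separate groups, called control set 1 and control set 2, and untreated Irf1-/- mutants another group. The treated groups were wildtype B6 and Irf1-/- mice killed at D26, after a single dose of azoxymethane (AOM, an alkylating carcinogen; 7 mg/kg, D1) and 2% dextran sulfate sodium (DSS, which damages the colon lining) from D8 to D11. The Irf1-/- line is a germline knockout, so every cell of its colon carries the mutation, and the labels give neither age nor sex. The comparisons ask what the genotype changes at steady state, what the treatment changes in each genotype, and whether these responses differ.

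Between 22266607 and 22869853 reads per library were assigned to listed genes, and the counts of mice within a group varied 8.65 to 42.7 times as much as read sampling alone would give (chi-square over its degrees of freedom). Irf1 was still counted in the mutants, at 79.4 to 123 CPM (counts scaled to the library total) against 128 to 227 in B6 libraries, and the counts do not show which exons were read. All 10 markers of colon epithelium were listed in all tables. The treated B6 libraries stood apart in base composition: the slope of their log2 deviation from the mean library was 0.14, 0.19 and 0.29 per 10% of GC content, against -0.12 to 0.03 in the other 12 libraries. Values corrected for GC content are therefore given beside those of the 2 GC-rich members, Rara and Rarg. The log2 changes of related genes are given without this correction. In whole tissue, fewer cells of a type and less RNA per cell cannot be told apart.

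The receptor Rarb and the retinoic acid hydroxylase Cyp26a1 are textbook direct targets of retinoic acid through a DR5 element, a pair of receptor half-sites 5 bases apart in the same direction. The element was searched on both strands, as the half-site AGGTCA or its forms changed at the first base (GGGTCA), at the third (AGTTCA) or at both (GGTTCA), followed by 5 bases and another of these 4, in RefSeq promoter windows from 250 bases before to 50 bases after a gene's start. These windows are of build GRCm38.p6, while the reads were counted on mm9. Windows were found for 7 members, 12 in all, and Aldh1a3 and Rdh10 had none. The 30 bases around the element are shown for the one member that has it and, for comparison, for the one other gene that has it among 41 related genes with a window (of 53 listed), with the half-sites and spacer in capitals, 5′ to 3′ along the gene's strand:
Rarb, chr14:16575506-16575535, minus strand: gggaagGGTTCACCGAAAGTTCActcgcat
Cyp26a1, chr19:37697770-37697799, plus strand: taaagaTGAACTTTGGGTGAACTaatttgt
The Rarb element lies 53 to 37 bases before the start and reads along the gene, and that of Cyp26a1 lies 32 to 16 bases before the start on the opposite strand. Such an element was in 0.0974% of 32851 promoter windows, and a match is only a description of these letters. Of this pair of genes, Rarb was counted in every library and Cyp26a1 was listed in none of the tables.

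Levels of different genes are compared per kb of transcript, with lengths from the GENCODE M21 annotation. Among the enzymes of the second step, Aldh1a1 stood at 18.7 to 21.3 CPM per kb in the 5 groups, as group means. The mean of Aldh1a3 was 2.61, 3.21 and 3.18 CPM per kb in control set 1, control set 2 and untreated mutants, and 10.2 and 14.6 in treated B6 and treated mutants. Aldh1a3 was thus several-fold below Aldh1a1 in untreated colons and approached it in treated mutants. Of the first-step enzymes, Rdh10 held 7.21 to 11.4 CPM per kb and Dhrs9 only 0.722 to 6.80. Rbp2, which carries retinol inside enterocytes, held 13.6 to 17.8 CPM per kb. Among the receptors, Rara (7.57 to 11.7) and Rarg (6.15 to 9.996) lay close together and Rarb was lower (2.31 to 2.52 CPM per kb).

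**Figure D1:**
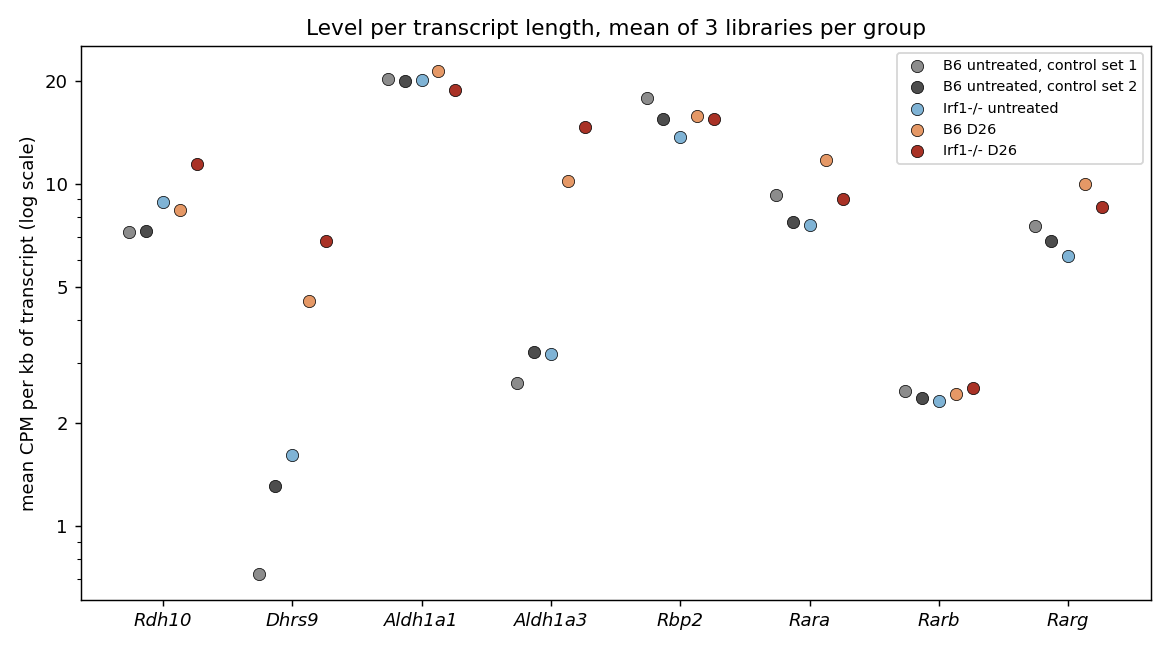
Mean level of the 8 listed genes per kb of transcript (log axis, CPM per kb; 1 point per group, the mean of 3 libraries). Aldh1a1 stays near 20 in all groups, Aldh1a3 moves from 2.61 to 14.6, and Dhrs9 has the lowest point, 0.722 in control set 1.

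Aldh1a3, which makes retinoic acid from retinal, was the member that separated treated from untreated colons. Its level was 7.88, 10.7 and 8.34 CPM in control set 1, and 8.34, 11.2 and 13.6 CPM in control set 2. Untreated mutants had 13.7, 8.36 and 10.7 CPM. Treated B6 mice had 31.5, 48.4 and 25.0 CPM, and treated mutants 49.6, 44.2 and 57.5 CPM. All 6 treated libraries lay above all 9 untreated ones, and the 3 untreated groups overlapped. The log2 fold change (FC, fitted with edgeR on counts scaled by TMM, a correction for library composition) was 1.97 in B6 (SE 0.24), from a mean of 8.99 ± 1.54 to 35.0 ± 12.1 CPM (SD, n = 3). In mutants it was 2.21 (SE 0.17), from 10.9 ± 2.69 to 50.4 ± 6.68 CPM (SD, n = 3). Ranked by log2 FC from the highest, Aldh1a3 was number 14 of 12643 genes in B6 and number 8 of 12692 in mutants.

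Dhrs9, a dehydrogenase that can turn retinol into retinal, was also higher after treatment, with a wide spread. It stood at 2.99, 2.73 and 3.55 CPM in control set 1 and 5.60, 5.64 and 5.54 CPM in control set 2, so the untreated B6 sets did not overlap. Untreated mutants had 4.80, 8.32 and 7.59 CPM. Treated B6 mice had 7.20, 39.9 and 11.3 CPM, and treated mutants 46.8, 20.3 and 20.2 CPM. One library in each treated group was far above the other two, and the lowest treated B6 library was below the highest untreated mutant library. The log2 FC was 2.66 in B6 (SE 0.58) and 2.08 in mutants (SE 0.35). Dhrs9 reached the filter of the B6 table, 5 CPM in 3 libraries, only through the treated mice. It reached that of the mutant table only with a treated library, as untreated mutant library 1 had 4.80 CPM. The direction with treatment was thus favoured by the filter in both genotypes. Against control set 2 in place of set 1 the B6 value was 1.81 (SE 0.53), and without treated B6 library 2 it was 1.59.

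**Figure D2:**
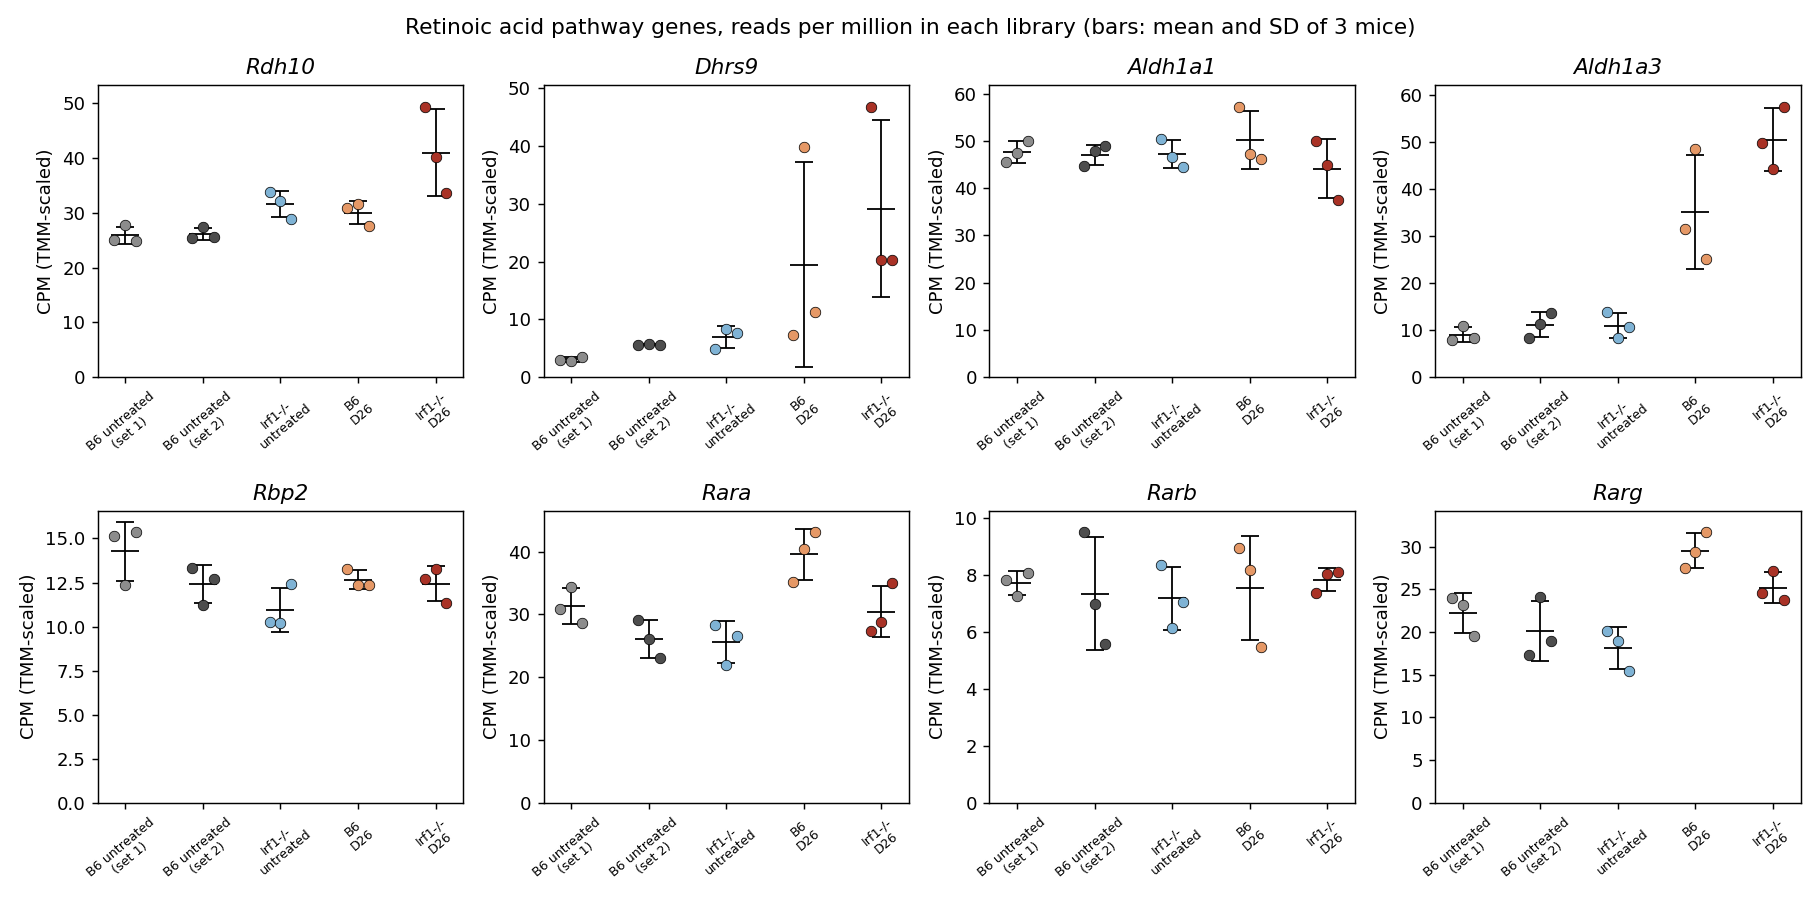
TMM-scaled CPM of the 8 listed genes in each library (points, 3 mice per group; bars are the mean and SD, and each vertical axis starts at 0). Aldh1a3 in the 6 treated libraries, 25.0 to 57.5 CPM, lies above all untreated libraries, while Aldh1a1, Rbp2 and Rarb overlap across the groups.

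The other first-step enzyme, Rdh10, had the lowest means in the untreated B6 sets and the highest in treated mutants, and it was called in no comparison. Control sets 1 and 2 had means of 25.9 ± 1.63 and 26.1 ± 1.03 CPM (SD, n = 3). Treated B6 mice had 30.03 ± 2.14, untreated mutants 31.6 ± 2.43 and treated mutants 41.0 ± 7.98 CPM (SD, n = 3). In that order of means, control set 2 and treated B6 did not overlap, and the other neighbours did. The libraries of untreated mutants, 33.7, 32.1 and 28.9 CPM, were all above those of control set 2, 25.5, 27.3 and 25.6 CPM, with a log2 FC of 0.27 (SE 0.08). Those of treated mutants, 49.4, 40.1 and 33.5 CPM, were all above the treated B6 libraries, 30.9, 31.6 and 27.6 CPM, with a log2 FC of 0.43 (SE 0.14). With treatment, Rdh10 overlapped control set 1 in B6, at a log2 FC of 0.22 (SE 0.09), and the untreated libraries in mutants, at 0.38 (SE 0.14).

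Aldh1a1, the most abundant member per length, stayed between 37.5 and 57.3 CPM in the 15 libraries, and no neighbouring pair of groups was apart in its order of means. Its log2 FC was 0.08 in treated B6 (SE 0.10) and -0.09 in treated mutants (SE 0.11). It shares near-identical sequence with Aldh1a7, so reads may have been split between them and its level is uncertain. Rbp2 stayed between 10.2 and 15.3 CPM, again with neighbouring groups overlapping, and had a log2 FC of -0.16 in treated B6 (SE 0.13) and 0.19 in treated mutants (SE 0.13).

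The receptors Rara and Rarg were highest in treated B6 mice. Rara, a receptor found in most tissues, had 30.9, 34.3 and 28.6 CPM in control set 1, 29.1, 26.1 and 23.1 CPM in control set 2, and 28.3, 21.9 and 26.6 CPM in untreated mutants. Treated B6 mice had 35.2, 40.5 and 43.1 CPM, all above treated mutants with 27.4, 28.9 and 35.1 CPM. Rarg, best known from skin, had 24.0, 23.1 and 19.6 CPM in control set 1, 17.4, 24.0 and 18.9 CPM in control set 2, and 20.1, 19.0 and 15.4 CPM in untreated mutants. It had 27.5, 29.4 and 31.7 CPM in treated B6 mice and 24.6, 27.2 and 23.7 CPM in treated mutants. The treated B6 libraries thus lay above control set 1 and above treated mutants for both receptors, and for Rarg the treated mutants also lay above the untreated ones.

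In B6 mice the log2 FC with treatment was 0.35 for Rara (SE 0.11) and 0.42 for Rarg (SE 0.11). Against control set 2 in place of set 1 it was 0.61 for Rara (SE 0.12) and 0.57 for Rarg (SE 0.13). In mutants it was 0.25 for Rara (SE 0.13) and 0.47 for Rarg (SE 0.12). Between treated mutants and treated B6 mice it was -0.40 for Rara (SE 0.12) and -0.25 for Rarg (SE 0.11). Transcripts of Rara and Rarg hold 59.2% and 58.8% GC, and the treated B6 libraries favoured GC-rich genes. After a correction of each library for GC content, the B6 values against control set 1 were 0.15 (SE 0.09) for Rara and 0.23 (SE 0.09) for Rarg. Those between treated genotypes were -0.23 (SE 0.11) and -0.08 (SE 0.11). The correction left the mutant values at 0.21 (SE 0.12) for Rara and 0.44 (SE 0.13) for Rarg.

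Rarb, the receptor with the promoter element shown above, was the least variable in its group means, 7.19 to 7.84 CPM. Its libraries ranged from 5.47 to 9.51 CPM and neighbouring groups overlapped throughout the order of means. Its log2 FC was -0.03 in treated B6 (SE 0.19) and 0.13 in treated mutants (SE 0.15).

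The call of a gene required a 1.5-fold change or more and a p, adjusted by Benjamini-Hochberg, below 0.01 in edgeR's quasi-likelihood test over all genes. In mutants 1 of 8 members, Aldh1a3, was called after treatment, where 0.252% of all genes were. That call is lost without untreated mutant library 2 (log2 FC 2.05) or library 3 (2.19). In B6, 0 of 8 members were called, where 0.0475% of all genes were. The DESeq2 Wald test called 2 members in B6 (3.49% of all genes) and 2 in mutants (1.74%), and limma voom 0 in B6 (0.0% of all genes) and 1 in mutants (0.165%). At steady state (0.405% of all genes called), for the difference between the responses (0.016%), between the treated genotypes (0.385%) and between the control sets (0.0644%), 0 of 8 members were called by edgeR, DESeq2 or limma voom. In these 4 comparisons, in the same order, DESeq2 called 0.85%, 0.601%, 2.16% and 1.16% of all genes, and limma voom 0.342%, 0.016%, 0.352% and 0.0886%. At an unadjusted p under 0.05 there were 5 of 8 members with treatment in B6 (29.5% of all genes) and 4 of 8 in mutants (18.6%). At the same limit there was 1 at steady state (10.4%), 0 for the difference between responses (16.9%), 4 between treated genotypes (22.0%) and 2 between the control sets (17.2%). Since the members were chosen with these values known, nothing is read from the counts.

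The libraries of the compared groups did not overlap for 4 members with treatment in B6 (34.5% of all genes), which were Aldh1a3, Dhrs9, Rara and Rarg, all higher. With treatment in mutants this held for Aldh1a3, Dhrs9 and Rarg (25.1% of all genes), also higher. Between treated genotypes it held for Rdh10, higher in mutants, and for Rara and Rarg, lower in mutants (27.5%). At steady state it held for Rdh10 (15.4%), and between the control sets for Dhrs9 (21.3%). Dhrs9 is the member whose baseline differed most between the untreated B6 sets, with a log2 FC of 0.86 (SE 0.17). It reached the filter of the untreated table only with a library of control set 2, which favours that direction. At steady state its log2 FC was 0.30 (SE 0.20), and 1.155 (SE 0.22) against control set 1. With the same change of set, Rbp2 went from -0.18 to -0.39 (SE 0.13) and Rara from -0.03 to -0.29 (SE 0.11).

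**Figure D3:**
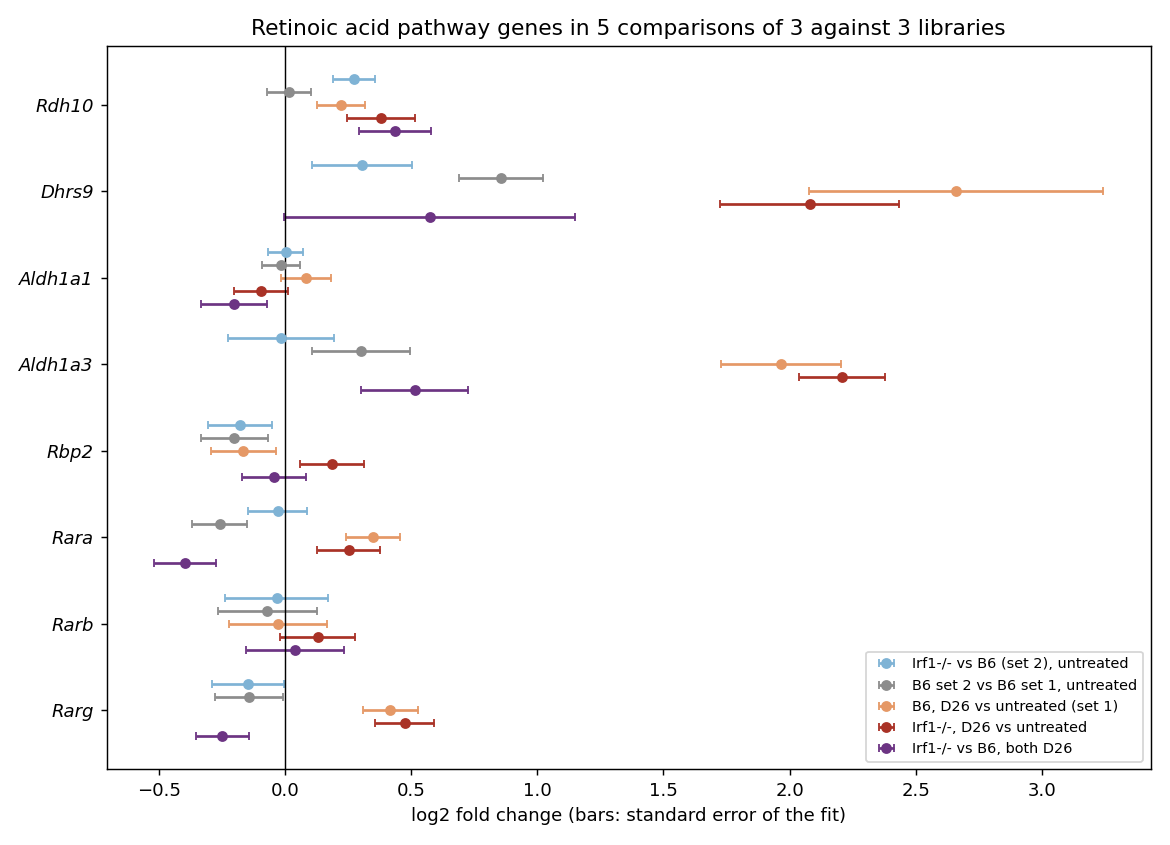
log2 FC of the 8 listed genes in 5 comparisons of 3 against 3 libraries (points; bars are the standard error of the fit). Aldh1a3 and Dhrs9 lie near or above 2 in both treated genotypes, and other values lie within 1 of 0. Comparisons that use the same group of libraries are not independent.

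No member was called for the difference between the responses of the genotypes, and the errors of that difference were wide. This difference, mutant minus B6, was 0.24 in log2 units for Aldh1a3 (SE 0.33) and -0.58 for Dhrs9 (SE 0.77). The Dhrs9 value turned to 0.49 without treated B6 library 2 and to 0.28 against control set 2. For Rara the difference was -0.09 (SE 0.17). It was -0.35 (SE 0.18) against control set 2 and 0.06 (SE 0.15) after the GC correction. Between treated mutants and treated B6 mice, log2 FC was 0.51 for Aldh1a3 (SE 0.21) and 0.57 for Dhrs9 (SE 0.58), with overlapping libraries, and the Dhrs9 value ran from 0.04 without treated mutant library 1 to 1.64 without treated B6 library 2.

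Markers of squamous epithelium, which lines the anal canal beyond the distal colon, moved with Aldh1a3. All 6 on the list (Krt5, Krt14, Krt13, Krt6a, Trp63 and Dsg3) were counted in every table. Their summed level was 220.0 to 355 CPM in control set 1, 186 to 368 in control set 2 and 257 to 416 in untreated mutants. It was 519 to 939 CPM in treated B6 mice and 513 to 1322 in treated mutants. All 6 had a positive log2 FC with treatment in each genotype, with a median of 0.95 in B6 and 1.42 in mutants. In each genotype 3 of 6 had an adjusted p under 0.05 (edgeR), as did 8.46% of all genes in B6 and 2.37% in mutants. Across the 15 libraries, Pearson's r of log2 Aldh1a3 with the log2 marker sum was 0.898, and 0.577 after the group means were removed. For Dhrs9 it was 0.733, and 0.037 after the group means were removed. These points share libraries, treatment and library composition, and the part of the squamous markers in these differences was not tested.

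Markers of other cell types also differed between groups. The sum of 10 colon epithelium markers was 10950 to 11630 CPM in control set 1 and 10110 to 12830 in control set 2. It was 12710 to 12880 in untreated mutants, 12170 to 16230 in treated B6 mice and 12210 to 13150 in treated mutants. With treatment in B6, 6 of 10 had a positive log2 FC (range -1.01 to 1.68) and 3 an adjusted p under 0.05 (edgeR; 8.46% of all genes). In mutants 4 of 10 were positive, and 0 had an adjusted p under 0.05 (2.37% of all genes). The sum of 7 macrophage and dendritic cell markers, 249 to 385 CPM in the untreated groups, was 386 to 547 in treated B6 mice and 406 to 448 in treated mutants. With treatment, 0 of 7 markers in B6 (8.46% of all genes) and 5 of 7 in mutants (2.37%) had an adjusted p under 0.05 (edgeR). Over the 15 libraries, r with this sum was 0.818 for Rarg, 0.738 for Aldh1a3 and 0.722 for Rara, and 0.339, 0.153 and 0.229 with group means removed. The sum of 6 fibroblast markers was highest in the library with the most Dhrs9, treated mutant library 1, at 5353 CPM, and next highest in treated B6 library 2, at 4510, against 3158 to 3994 in all others. With group means removed, r between Dhrs9 and the fibroblast sum was 0.730 over 15 libraries. In the same way it was 0.51 with the colon epithelium sum and 0.50 with the macrophage and dendritic cell sum. The sum of 5 B and plasma cell markers was 581 to 656 CPM in control set 1 and 222 to 247 in control set 2, with 278 to 409 in untreated mutants, 341 to 635 in treated B6 mice and 188 to 380 in treated mutants. Their median log2 FC was -1.21 between the control sets and 1.17 at steady state, with all 5 in one direction each time. Of 5 T cell markers Cd4 alone was listed, at 6.49 to 9.70 CPM in untreated mutants and higher in every treated mutant library, up to 16.4 CPM (log2 FC 0.90). Cd4 had 5.41 to 8.77 CPM in control set 1, 3.97 to 6.41 in control set 2 and 6.24 to 13.1 in treated B6 mice. Its log2 FC with treatment in B6 was 0.46. The part of these cell types in the values of the members was not tested. None of 5 mesothelial and none of 4 adipocyte markers was listed.

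**Figure D4:**
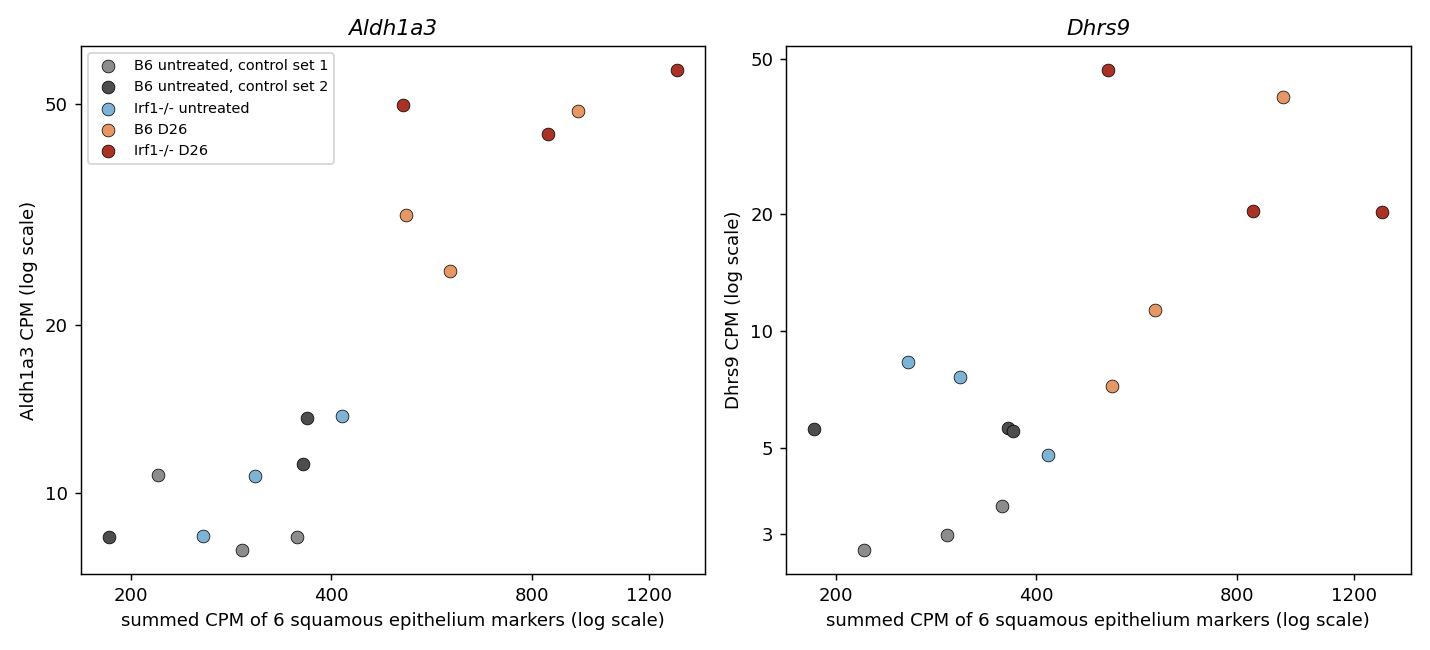
Aldh1a3 (left) and Dhrs9 (right) in CPM against the summed CPM of 6 squamous epithelium markers, both on log axes, 1 point per library, 15 libraries. Treated libraries lie at the upper right for Aldh1a3, and the library with the most Dhrs9 has the lowest marker sum among the treated libraries, 513.

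The genes whose log2 CPM over the 15 libraries was most like that of Aldh1a3, among 12369 others, were Anxa1 (r = 0.960), Krt6a (0.953) and Tnfrsf11b (0.952). Anxa1 encodes an annexin, Krt6a a keratin of stratified epithelium that is also on the squamous list, and Tnfrsf11b a decoy receptor for a bone-active cytokine. Those most like Dhrs9 were Ddah1 (0.949), Pmepa1 (0.946) and AI747448 (0.938), and AI747448 was also among the 3 most like Rdh10 (0.908) after Vmp1 (0.915) and Robo2 (0.913). For Rara they were Phf23 (0.943), Phf12 (0.942) and Midn (0.923), and for Rarg Rassf5 (0.937), Zfr2 (0.895) and Sidt2 (0.885). Likeness was weaker for the members that varied little. It was highest for Aldh1a1 with Cdc42ep5 (0.834), 2010320M18Rik (0.830) and Ufc1 (0.829), for Rbp2 with Rhbdd1 (0.834), Isca2 (0.766) and Klf3 (0.755), and for Rarb with Cpsf7 (0.808), Baz2b (0.782) and Naip1 (0.770). Among the members themselves, r was 0.863 between Aldh1a3 and Dhrs9 and 0.716 between Rara and Rarg, and 0.281 and 0.046 with group means removed.

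The wider pathway was followed with a list of 53 other genes of vitamin A handling and retinoic acid response, of which 37 were in at least 1 table and 34 in all. The breakdown enzymes Cyp26a1, Cyp26b1 and Cyp26c1, the binding proteins Crabp1 and Crabp2, and the storage enzyme Lrat were listed in none. In edgeR's test 0 of 35 related genes were called with treatment in B6 and 0 of 37 in mutants. At an unadjusted p under 0.05 there were 10 in B6 and 5 in mutants, shares at or below the 29.5% and 18.6% of all genes. DESeq2 called 1 in B6 and 2 in mutants, against 3.49% and 1.74% of all genes, and limma voom 0. The median log2 FC of the list was 0.01 in B6 and 0.01 in mutants, beside 0.01 and 0.01 over all genes tested.

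Stra6, the cell-surface receptor that takes up retinol from its blood carrier, had 4.71, 5.55 and 2.57 CPM in control set 1 and 9.66, 12.2 and 9.67 CPM in treated B6 mice, with a log2 FC of 1.30 (SE 0.26). In mutants it had 2.67, 4.14 and 5.30 CPM untreated and 10.4, 8.85 and 15.9 CPM treated, with a log2 FC of 1.54 (SE 0.28). Every treated library was above the untreated ones of its genotype, and edgeR called neither value. Stra6 reached the filter of 5 CPM in 3 libraries only through the treated mice in both tables, and it was not in the untreated table, so its direction was favoured by the filter and no p is given. Isx, a transcription factor of the gut epithelium that retinoic acid induces, was not in the B6 table. In mutants it had 5.64, 5.47 and 6.31 CPM untreated and 25.9, 9.83 and 7.45 CPM treated, with a log2 FC of 1.31 (SE 0.42, adjusted p = 0.134 in edgeR). Ttr, which carries retinol with its binding protein in blood, had -0.49 in B6 (SE 0.15, adjusted p = 0.0722 in edgeR) and -0.33 in mutants (SE 0.08, adjusted p = 0.0821).

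Dhrs3, which turns retinal back into retinol, had 41.0, 48.5 and 39.6 CPM in control set 1 and 62.5, 61.8 and 50.7 CPM in treated B6 mice. Its log2 FC was 0.45 (SE 0.11, adjusted p = 0.0433 in edgeR), and between treated mutants and treated B6 mice it was -0.44 (SE 0.10, adjusted p = 0.0648). Neither value is corrected for GC content, in which the treated B6 libraries stood apart. The carotene-cleaving enzyme Bco1 had a log2 FC of -0.55 in treated B6 mice (SE 0.14, adjusted p = 0.0454 in edgeR). It also had -0.65 between the untreated B6 sets (SE 0.14, adjusted p = 0.0628 in edgeR), and against control set 2 the value with treatment was 0.11. The lower Bco1 value therefore depended on which untreated B6 set was used.

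In the other comparisons 0 of 34 to 35 related genes were called by edgeR, where 0.016% to 0.405% of all genes were. At an unadjusted p under 0.05 there were 3 at steady state (10.4% of all genes) and 2 for the difference between responses (16.9%). At the same limit there were 6 between treated genotypes (22.0%) and 6 between the control sets (17.2%). DESeq2 and limma voom called 0, except for 1 gene, Bco1, that DESeq2 called between the control sets (1.16% of all genes). At steady state the smallest p was that of Isx, with 4.13, 1.07 and 2.95 CPM in control set 2 and a log2 FC of 1.10 (SE 0.34) in untreated mutants. Isx reached the filter of that table only through the mutants, so its direction was favoured by the filter and no p is given. Bco2, another carotene-cleaving enzyme, and Itga4, an integrin chain of lymphocyte homing, followed with 0.30 and 0.21. Against control set 1 the Bco2 value turned to -0.20. Between the treated genotypes Itgb7, the integrin chain that pairs with Itga4 in gut homing, had a log2 FC of -0.73 (SE 0.21, adjusted p = 0.0975 in edgeR) and Itga4 0.33 (SE 0.11, adjusted p = 0.140). Both values rest on the treated B6 libraries and are not corrected for GC content. For the difference between the responses, Bco1 had 0.73 (SE 0.20, adjusted p = 0.117 in edgeR) but 0.08 against control set 2, Dhrs3 -0.31 and Rai14, a gene named for its induction by retinoic acid, 0.25 (0.10 against control set 2). Between the control sets Adh1, an alcohol dehydrogenase, and Bco2 had -0.39 and -0.50.

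**Figure D5:**
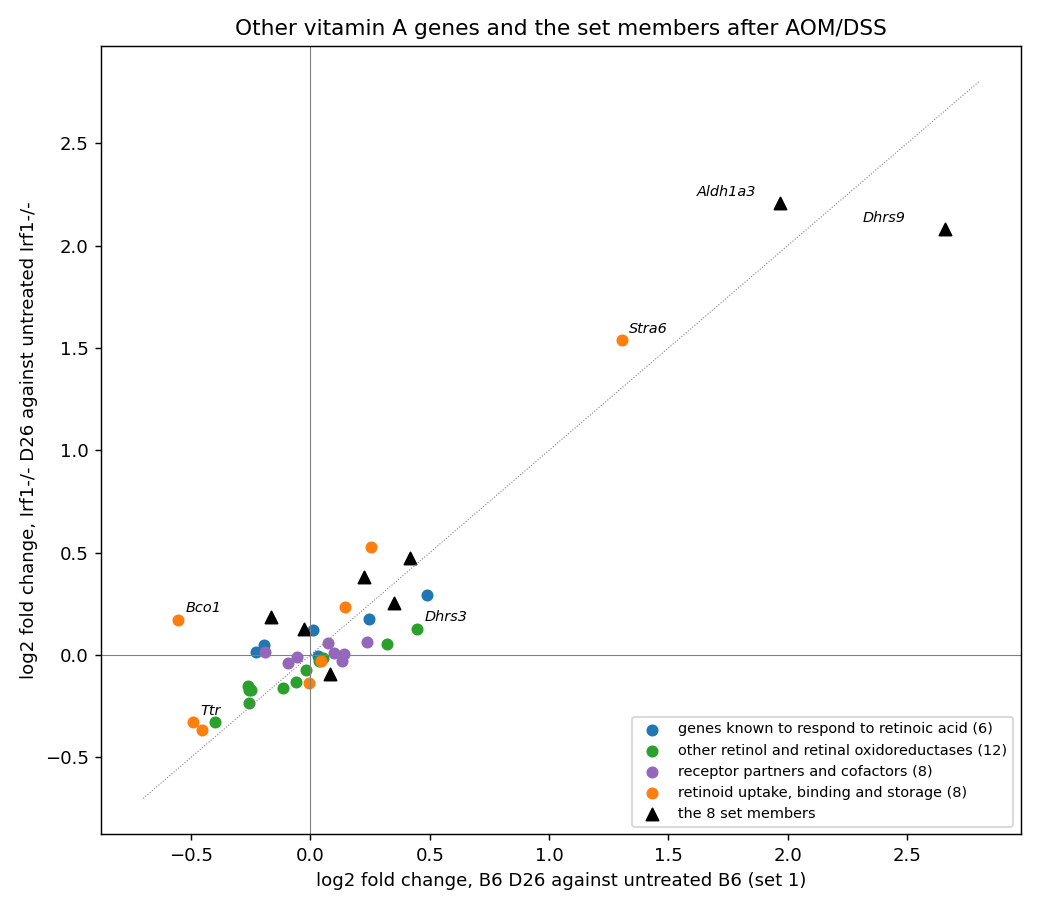
log2 FC with treatment in B6 (horizontal) and in mutants (vertical) for 34 related genes by role and the 8 set members (triangles). The dotted line marks equal values. Aldh1a3, Dhrs9 and Stra6 lie farthest from 0, and the receptor partners and cofactors lie within 0.24 of 0 on both axes.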

How the data were processed

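Per the labels and the study's methods, rRNA-depleted stranded libraries were read as 50 bp pairs, and the submitters' processing notes name TopHat2 2.0.9, Bowtie 1.0.0, featureCounts, edgeR and build mm9. The authors deposited raw counts per gene in 3 tables, which leave out genes that did not reach 5 CPM in 3 libraries, and 36 columns of their CPM were not used. The tables also hold the authors' log fold changes, p-values, dispersions and flags, which were not used either. The members nearest to this limit were Dhrs9 and Rarb, with a third-highest CPM of 5.70 and 7.09 in the untreated table, and Aldh1a2, which was not listed, has no value. The untreated Irf1-/- libraries are in 2 tables with identical counts (12496 of 12496 shared genes) and were used once per comparison.

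Counts were scaled by TMM and fitted with edgeR 4.0.16 (quasi-likelihood test, R 4.3.3), over all genes of the table or tables of a comparison, with the p-values adjusted over all of them. The call (1.5-fold or more, adjusted p below 0.01) follows the study's thresholds. At these thresholds the study reported more genes than were called here, with treatment in each genotype and at steady state. The p-values set a difference between groups against the spread between these mice. Nothing says whether the 3 mice of a group shared a litter or a cage. If they did, genotype or treatment cannot be told apart from litter or cage. Likeness used log2 CPM with a prior count of 2 over 15 libraries. The members, the lists of related genes and the markers were chosen with earlier results of these data known. Genes that reached the filter only through the group where they are higher had their direction favoured by it, and this is said beside them. Named were all members, each related gene called and the 3 with the smallest p per comparison, and the 3 genes most like each member, except 1 related gene that is not reported here. Rdh1, Rdh9, Rdh16 and Aldh1a7 have near-identical copies and their counts are uncertain.

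Alternatives were RLE size factors, DESeq2 1.42.0, limma 3.58.1 with voom, a filter of 10 CPM, an adjusted p under 0.05, the replicate number as a block, a lowess correction on GC content (span 0.3), each library left out, the other or both untreated B6 sets, and all 15 libraries in 1 fit. On counts simulated for treated against untreated B6 (12643 genes), the edgeR fit called all 200 genes changed by 1.5 log2 units and 1 unchanged gene. For the difference between the responses it called 196 of 200 changed genes and 0 unchanged ones. These counts were drawn from the dispersion trend alone, with no spread particular to a gene. They check the code and do not measure how many real changes the fit would find. Lengths and GC content came from GENCODE M21 and promoters from RefSeq (GRCm38.p6), with Python 3.11.15. No gene coordinates are given for mm9.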

Additional observations from a re-analysis of the deposited data

How the results depend on the processing

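Of 807 log2 FC values of members under alternatives, 766 kept their direction and call or moved by under 1 SD of libraries, 22 moved by more, 17 became called, 2 lost the call, and 0 called values reversed. Only a value called in the main fit could be labelled reversed, which was Aldh1a3 in treated mutants alone. The looser limit on adjusted p leaves log2 FC unchanged by construction. In B6 with treatment, where 0 members were called, the count was 1 with a filter of 10 CPM, with the replicate block and against control set 2, and 2 with DESeq2, an adjusted p under 0.05, both untreated sets, or all 15 libraries in 1 fit, and 0 to 2 with a library left out. These were Aldh1a3 alone or with Dhrs9. Over all genes, the counts called up and down were 14 and 15 of 10924 with that filter. They were 3 and 2 of 12643 with the block, and 22 and 49 of 12417 with control set 2. At an adjusted p under 0.05 they were 222 and 208 of 12643. Both untreated sets gave 99 and 143 of 12417, and the fit of all 15 libraries 113 and 184 of 12370. Counts over all genes are not given for fits with a library left out. In mutants with treatment the count of members was 2 with DESeq2 and with an adjusted p under 0.05, against 1. It was 0 to 2 with a library left out. Over all genes, that looser limit called 124 up and 45 down of 12692. Related genes called were 1 with DESeq2 and 2 with an adjusted p under 0.05 in B6, 2 under each of these in mutants, 1 in mutants with the replicate block, with or without the GC correction, and 1 between the control sets with DESeq2, against 0. Over all genes in mutants, the block called 40 up and 8 down of 12692, and 47 and 9 with the GC correction. The cause of these changes was not tested, except that a looser limit admits more genes by construction. Samples with the same replicate number did not deviate together (r from -0.223 to 0.248 over 15 pairs), so the numbers were not taken to pair mice. With the replicate block, log2 FC of Aldh1a3 with treatment was 1.93 in B6 and 2.22 in mutants. The members with the lowest counts, Dhrs9 and Rarb, rest on 62 to 212 reads per library in untreated colons.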
